A study of Mus musculus with 6 samples.

Results

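The imprinted growth genes are a set of 10 mouse genes, H19, Igf2, Igf2r, Dlk1, Meg3, Mest, Peg3, Cdkn1c, Grb10 and Ndn, each known to be transcribed mainly from the chromosome copy inherited from 1 parent. Their RNA was read in thoracic mammary glands of LH transgenic and wild type mice, all of them virgin, 16 weeks old and from an F1 cross, CF-1/FVB. The transgenic mice overexpress LH, luteinizing hormone, which the pituitary makes to drive the gonads. There were 3 Affymetrix arrays for LH transgenic glands and 3 for wild type glands, each from a separate RNA pool of 3 mice. For the LH transgene, the sources used here name neither construct nor promoter. Members were taken from the probe sets whose platform annotation names exactly 1 gene: 16 probe sets of 9 of the 10 genes, out of 12422 probe sets and 8251 genes in all. The only probe set that lists H19 also lists the microRNA gene it hosts, so H19 is not analysed here. Of the 16 probe sets, 12 (8 genes) had a mean MAS5 signal of at least 336.0 and were tested, and all 12 reached that level in both group means. The remaining 4, all 3 of Grb10 and 1 of Igf2, were dimmer and were not tested.

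Genomic imprinting leaves a gene with a silent and an active copy, set by DNA methylation marks laid down in the egg or the sperm. Many imprinted genes act on growth of the embryo and placenta, those expressed from the paternal copy often promoting it and those from the maternal copy often restraining it, and most are turned down after birth. Igf2, Dlk1, Mest, Peg3 and Ndn are transcribed from the paternal copy, and H19, Igf2r, Meg3, Cdkn1c and, in most tissues, Grb10 from the maternal copy. In the mammary gland Igf2 is known as a growth factor of alveolar cells downstream of prolactin. Dlk1 and Mest are known from fat cells and their precursors, and Ndn from neurons and fat cell precursors. Arrays read both copies together, so no value below speaks of the allele used.

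Promoter sequences are shown for the 3 members with a called decrease that RefSeq's table for GRCm38.p6 holds, so that a reader can see what lies at these starts. The table held 15 promoters of 8 of the 10 members, each reaching 250 bases before to 50 bases after a gene start. Capitals mark matches, on either strand, to GGGGCCCC (bound by the imprinted zinc finger protein Plagl1), TGACGTCA (the cyclic AMP response element), GGGCGG (the GC box) and TATAAA (the TATA box); these letters were chosen after the results were known. The sequences are those of Meg3 at chr12:109540746-109541045 on the plus strand (the first of 2 listed starts), Ndn at chr7:62348027-62348326 on the plus strand and Peg3 at chr7:6730370-6730669 on the minus strand, all in GRCm38.p6.
Meg3: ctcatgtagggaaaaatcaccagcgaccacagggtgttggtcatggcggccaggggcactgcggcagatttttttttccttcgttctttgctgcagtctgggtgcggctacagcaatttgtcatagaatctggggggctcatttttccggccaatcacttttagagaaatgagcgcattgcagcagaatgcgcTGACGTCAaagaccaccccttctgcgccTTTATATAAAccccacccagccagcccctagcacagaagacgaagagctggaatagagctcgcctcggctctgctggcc
Ndn: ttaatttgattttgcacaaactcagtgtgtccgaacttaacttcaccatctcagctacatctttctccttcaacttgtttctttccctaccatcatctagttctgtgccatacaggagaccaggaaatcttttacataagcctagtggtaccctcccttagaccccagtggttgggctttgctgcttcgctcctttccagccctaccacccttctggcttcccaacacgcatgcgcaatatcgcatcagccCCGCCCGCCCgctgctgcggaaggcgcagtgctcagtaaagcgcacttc
Peg3: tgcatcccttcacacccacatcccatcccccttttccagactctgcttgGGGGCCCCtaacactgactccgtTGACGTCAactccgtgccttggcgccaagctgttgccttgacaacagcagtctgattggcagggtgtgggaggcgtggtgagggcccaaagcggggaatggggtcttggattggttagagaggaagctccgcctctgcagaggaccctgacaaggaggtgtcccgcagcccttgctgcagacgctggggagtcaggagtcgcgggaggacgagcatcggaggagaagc

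The cyclic AMP response element stood in the Meg3 promoter shown and in that of Peg3, 2 of the 15 member promoters. It was in 1.79% of the 32851 promoters of the table. The Plagl1 letters stood in the Peg3 promoter, 1 of the 15, and in 1.08% of all promoters. The TATA box of the Meg3 promoter shown matched on both strands in overlapping letters. This motif was in 1 of the 15 member promoters and in 13.6% of all promoters. The other listed Meg3 start held no match to any of these motifs. Ndn had overlapping GC boxes, which 35.7% of promoters hold and 8 of the 15 member promoters. A match is a run of letters in this window and not a measured binding site.

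The transcripts of Meg3, Cdkn1c and Ndn were lower in LH transgenic glands than in wild type glands, by between 0.85 and 1.34 on the log2(signal + 80.0) scale at the probe sets that were called. Peg3 had 1 probe set that fell and 1 that rose. Igf2, Igf2r, Dlk1 and Mest had no call. By limma with Benjamini-Hochberg adjustment over all 7453 tested probe sets and a threshold of 0.05, 5 of 12 member probe sets fell, where 10.8% of all tested probe sets did. The number that rose was 1 of 12, where 10.5% of all tested probe sets rose, so that count was near the background. Called either way were 6 of 12, where 21.3% of all tested probe sets were. Probe sets of 1 gene are not separate members. The 5 that fell were of 4 genes, Ndn being counted at both its probe sets, and Peg3 is in both counts. The median log2 difference was -0.61 over the 12 probe sets and 0.02 over all tested probe sets. In whole glands, fewer cells of a type and less RNA per cell cannot be told apart.

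**Figure D1:**
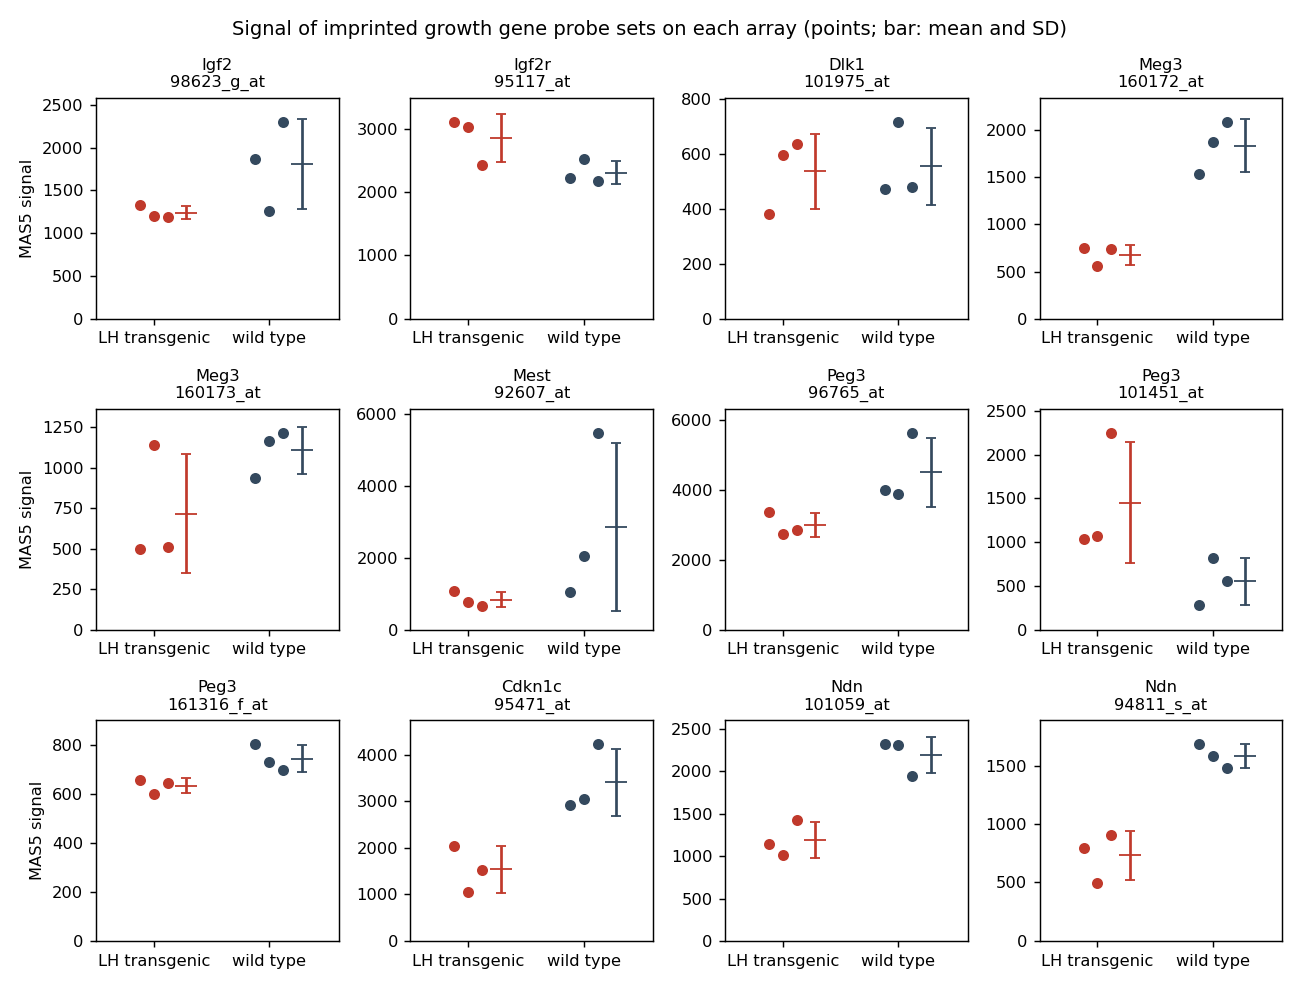
MAS5 signal (vertical axes, linear, from 0) of the 12 tested probe sets on each array, LH transgenic pools in red at left and wild type pools in dark blue at right, with the mean and SD of 3 arrays beside the points. Meg3 160172_at, Cdkn1c and both Ndn probe sets sit lower on every LH transgenic array than on any wild type array, and Peg3 101451_at sits higher on every LH transgenic array.

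Among the growth factor and its receptors, Igf2 encodes insulin-like growth factor II. Its probe set 98623_g_at had signals of 1323.7, 1197.7 and 1193.9 on the LH transgenic arrays, against 1867.2, 1261.7 and 2303.7 on the wild type arrays. Wild type pool 2 lay within the LH transgenic range, so the groups overlapped. The LH transgenic pools were close together (1238 ± 73.9, SD, n = 3), and the wild type pools were spread (1811 ± 523, SD, n = 3). The difference was -0.48 (SE 0.20; 95% interval -0.94 to -0.03) and was not called by limma (adjusted p 0.123). Without wild type pool 2 it was -0.71 and called (limma adjusted p 0.0243), and without wild type pool 3 it was -0.30.

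The other Igf2 probe set, 98622_at, is annotated to the same sequence entry as 98623_g_at. It had signals of 26.6, 105.5 and 13.3 on the LH transgenic arrays, against 19.6, 24.4 and 32.1 on the wild type arrays, and stayed under the level required for testing. In a fit without the filter on dim probe sets its difference was 0.22 (SE 0.24, limma adjusted p 0.633). That was opposite in sign to 98623_g_at and not called. At signals this dim, 98622_at gave no firm reading of Igf2 to set beside that of 98623_g_at.

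Igf2r encodes the receptor that takes up Igf2 for breakdown and carries enzymes tagged with mannose 6-phosphate to lysosomes. Probe set 95117_at had 3115.2, 3028.6 and 2424.3 on the LH transgenic arrays, against 2217.2, 2517.6 and 2181.3 on the wild type arrays. LH transgenic pools 1 and 2 lay above all wild type pools, and pool 3 fell among them. The difference was 0.29 (SE 0.14; 95% interval -0.03 to 0.62; limma adjusted p 0.18). Igf2r was the member gene with the opposite sign to Meg3, Cdkn1c and Ndn at its single probe set, without a call. On a scale set by the bacterial hybridisation controls its difference was -0.37, where the median of all probe sets moved to -0.62, which puts Igf2r 0.25 above that median.

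Grb10 encodes an adaptor protein that binds the insulin and IGF1 receptors and dampens their signal. All 3 of its probe sets were dim. Probe set 93690_at had 104.6, 148.8 and 179.4 on the LH transgenic arrays, against 255.0, 319.1 and 104.0 on the wild type arrays. Probe set 93691_s_at ranged from 48.3 to 247.1 on LH transgenic arrays and from 53.8 to 288.0 on wild type arrays, and 95450_at reached at most 72.4 and 68.1. The groups overlapped at all 3. In a fit without the filter on dim probe sets the differences of 93690_at, 93691_s_at and 95450_at were -0.39, -0.21 and -0.23, with limma adjusted p of 0.495, 0.823 and 0.516. None was called.

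Of 14 tested probe sets of 11 partner genes in insulin and IGF signalling, 2 fell and 2 rose by limma at an adjusted p under 0.05, and 10 were not called. These counts were near the 10.8% that fell and 10.5% that rose over all tested probe sets, and the median log2 difference was -0.19. Akt2, a kinase of the insulin pathway in fat and muscle, had 2203 ± 549 in LH transgenic glands and 5803 ± 231 in wild type glands (SD, n = 3 each; log2 -1.39, SE 0.18, limma adjusted p 0.00102). Igf1 probe set 95546_g_at had 2150 ± 427 in LH transgenic glands and 4928 ± 435 in wild type glands (log2 -1.18, limma adjusted p 0.00132), whereas Igf1 95545_at differed by -0.27 (limma adjusted p 0.305). Irs2, an adaptor of the insulin receptor, had 732 ± 80.6 in LH transgenic glands and 206 ± 145 in wild type glands (log2 1.61, limma adjusted p 0.00714). Its wild type mean lay under the level required for testing, so it was tested because it was high in the LH transgenic glands. Igfals, which encodes a subunit of the circulating IGF complex, had 8832 ± 2216 in LH transgenic glands and 3875 ± 827 in wild type glands (log2 1.16, limma adjusted p 0.00564). Igf1r, the receptor through which Igf1 and Igf2 signal, differed by -0.23 (limma adjusted p 0.245).

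Dlk1 and Meg3 are the paternally and the maternally expressed genes of 1 imprinted domain, with 0 protein-coding genes between them in the RefSeq annotation. Dlk1 encodes a membrane protein that holds back fat cell differentiation, and Meg3 is a long noncoding RNA. Dlk1 (101975_at) had 380.4, 595.6 and 634.7 on the LH transgenic arrays, against 471.6, 717.6 and 477.8 on the wild type arrays. These values interleaved, and the difference was -0.05 (SE 0.24; 95% interval -0.58 to 0.48; limma adjusted p 0.915). Its sign turned when LH transgenic pool 1 (0.15) or wild type pool 2 (0.13) was left out, and when skeletal muscle level was added as a covariate (0.31), so no direction can be given for Dlk1.

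Meg3 probe set 160172_at had 744.4, 555.3 and 733.9 on the LH transgenic arrays, against 1537.4, 1877.7 and 2090.9 on the wild type arrays. Every LH transgenic pool was below every wild type pool, as was so for 6 of the 12 member probe sets and 19.8% of all tested probe sets. The means were 678 ± 106 in LH transgenic glands and 1835 ± 279 in wild type glands (SD, n = 3 each), a log2 difference of -1.34 (SE 0.17; 95% interval -1.72 to -0.95; limma adjusted p 0.00112). It was between -1.45 and -1.22 when each pool was left out in turn, with limma adjusted p of at most 0.00697.

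The other Meg3 probe set, 160173_at, had 499.0, 1139.8 and 512.0 on the LH transgenic arrays, against 939.0, 1164.8 and 1216.4 on the wild type arrays. LH transgenic pools 1 and 3 were low, and pool 2 lay within the wild type range, although pool 2 was the lowest of all arrays at 160172_at. The difference was -0.66 (SE 0.28; 95% interval -1.28 to -0.04; limma adjusted p 0.123), and without LH transgenic pool 2 it was -1.01 and called (limma adjusted p 0.00811). The log2 ratio of 160172_at to 160173_at was 0.51, -0.94 and 0.46 in the LH transgenic pools, against 0.67, 0.65 and 0.74 in the wild type pools. The groups' mean ratios differed by -0.68 (exact two-sided permutation p 0.1, the smallest that 3 arrays against 3 allow; adjusted p 0.167 over 5 pairs), and by -0.20 without LH transgenic pool 2.

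Genes of the Notch pathway, to which Dlk1 is related in structure, had counts of calls near the background. Of 12 tested probe sets of 9 genes, 2 fell and 1 rose by limma (median log2 difference -0.20). Of all tested probe sets 10.8% fell and 10.5% rose. Notch3, a receptor of vascular smooth muscle, had 2177 ± 183 in LH transgenic glands and 3907 ± 149 in wild type glands (log2 -0.82, limma adjusted p 0.00229). Hey1, a Notch target, had 696 ± 44.2 in LH transgenic glands and 1102 ± 97.3 in wild type glands (log2 -0.61, limma adjusted p 0.0176), a call lost without LH transgenic pool 1 or without wild type pool 1 or 3. Notch1 rose by 0.94 at 162204_r_at (limma adjusted p 0.0396) and differed by -0.06 at 97497_at (limma adjusted p 0.794). The call of 162204_r_at was lost under 9 of 17 other settings.

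Mest and Peg3 are paternally expressed and both carry names that record it (mesoderm specific transcript, also Peg1, and paternally expressed gene 3). Mest encodes a membrane protein of the alpha/beta hydrolase family that is known to be high in expanding fat tissue. Its only probe set, 92607_at, had 1077.4, 782.1 and 655.9 on the LH transgenic arrays, against 1053.3, 2042.4 and 5489.3 on the wild type arrays. Wild type pool 3 stood far above the other wild type pools, and wild type pool 1 lay just under LH transgenic pool 1. The means were 838 ± 216 in LH transgenic glands and 2862 ± 2329 in wild type glands (SD, n = 3 each). The log2 difference of -1.40 was as large in size as that of Meg3 160172_at, but its SE was 0.47 (95% interval -2.45 to -0.35) and it was not called (limma adjusted p 0.0609). Without wild type pool 1 it was -1.93 and called (limma adjusted p 0.0121), and without wild type pool 3 it was -0.78.

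**Figure D2:**
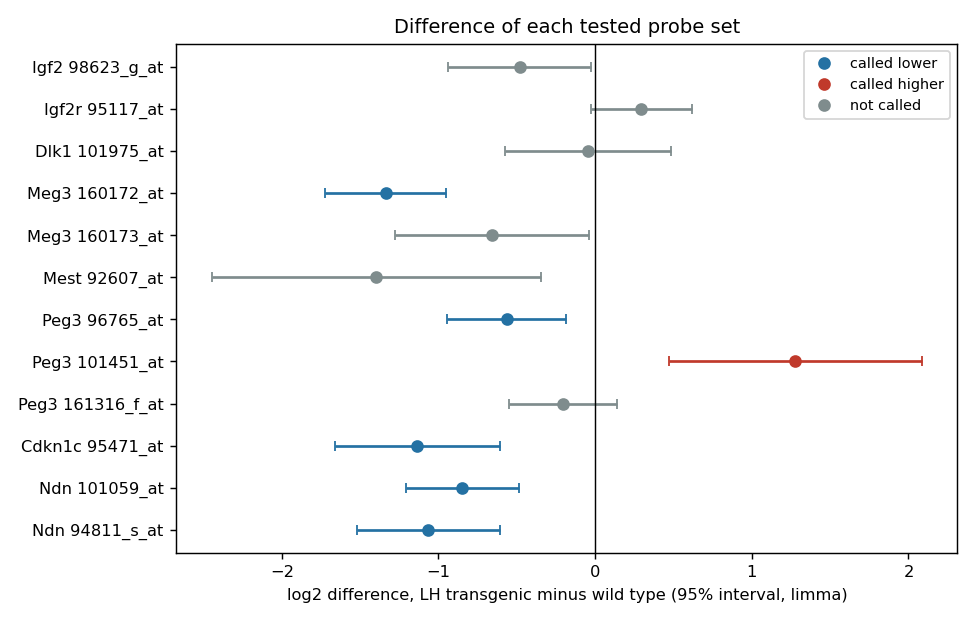
Log2 difference on the log2(signal + 80.0) scale (horizontal axis, LH transgenic minus wild type) of each tested probe set with its 95% interval from limma, coloured by call. Meg3 160172_at, Peg3 96765_at, Cdkn1c and both Ndn probe sets were called lower and Peg3 101451_at higher, and Mest had the widest interval.

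Peg3 encodes a large zinc finger protein. Its 3 tested probe sets did not move together. Probe set 96765_at had 3366.8, 2727.8 and 2846.4 on the LH transgenic arrays, against 3981.9, 3868.4 and 5626.9 on the wild type arrays. All LH transgenic pools lay below all wild type pools, and the difference was -0.56 (SE 0.17; 95% interval -0.94 to -0.18; limma adjusted p 0.0414). This call stood close to the threshold and was lost under 11 of 18 other settings. Among these were 5 of the 6 fits that left out a pool and, with all 6 arrays, quantile normalization (limma adjusted p 0.0544), no filter (0.0682), eBayes without a trend (0.0588) and arrayWeights (0.0623).

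Probe set 101451_at of Peg3 went the other way, with 1034.8, 1072.7 and 2248.7 on the LH transgenic arrays, against 287.3, 823.4 and 553.2 on the wild type arrays. All LH transgenic pools lay above all wild type pools, which 20.6% of all tested probe sets also showed, and pool 3 stood highest. The difference was 1.28 (SE 0.36; 95% interval 0.47 to 2.09; limma adjusted p 0.0328). Its call was lost without LH transgenic pool 3 (0.93, limma adjusted p 0.0834), wild type pool 1 (0.93, limma adjusted p 0.0983) or wild type pool 3 (1.32, limma adjusted p 0.0792).

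The third Peg3 probe set, 161316_f_at, had 659.3, 601.2 and 644.4 on the LH transgenic arrays, against 805.5, 730.8 and 699.1 on the wild type arrays. All LH transgenic pools lay below all wild type pools by a small margin, and the difference of -0.21 (SE 0.15; 95% interval -0.55 to 0.14; limma adjusted p 0.38) was not called. The log2 ratio of 96765_at to 101451_at was 1.63, 1.28 and 0.33 in the LH transgenic pools, against 3.47, 2.13 and 3.17 in the wild type pools, without overlap. The mean ratio differed by -1.84 between groups, that of 101451_at to 161316_f_at by 1.48, and that of 96765_at to 161316_f_at by -0.36. Their exact two-sided permutation p were 0.1, 0.1 and 0.2, and adjusted over 5 pairs 0.167, 0.167 and 0.2, where 3 arrays against 3 cannot give less than 0.1. No single direction can be given for Peg3 RNA from these probe sets.

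**Figure D3:**
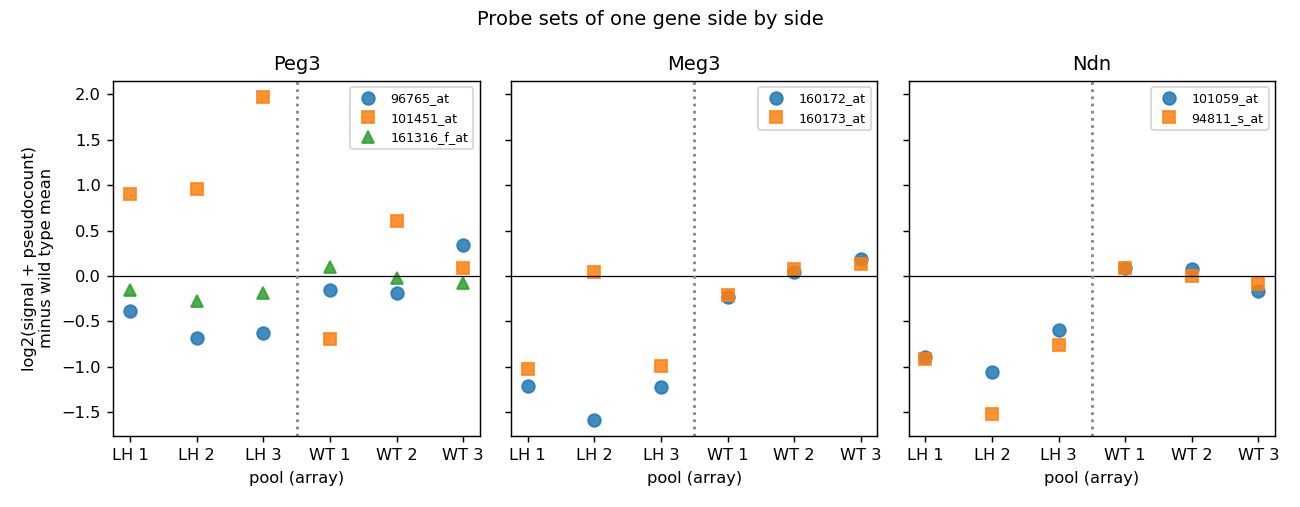
Log2(signal + 80.0) of each probe set minus its own wild type mean (vertical axis) on each array (horizontal axis, LH transgenic pools left of the dotted line, wild type pools right of it) for the 3 genes with several tested probe sets. Peg3 101451_at lies above its wild type mean on all LH transgenic arrays while 96765_at lies below its own. Meg3 160173_at parts from 160172_at on LH transgenic pool 2. Both Ndn probe sets lie below their wild type means on all LH transgenic arrays and are furthest apart on pool 2.

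Cdkn1c and Ndn are known as brakes on cell division. Cdkn1c encodes p57, an inhibitor of cyclin-dependent kinases. Its probe set 95471_at had 2043.4, 1042.0 and 1529.5 on the LH transgenic arrays, against 2925.1, 3050.7 and 4228.6 on the wild type arrays. No LH transgenic pool reached the wild type range. The means were 1538 ± 501 in LH transgenic glands and 3401 ± 719 in wild type glands (SD, n = 3 each), a log2 difference of -1.13 (SE 0.24; 95% interval -1.66 to -0.61; limma adjusted p 0.00905). With a pool left out it lay between -1.35 and -0.89, with limma adjusted p of at most 0.04.

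Tested were 15 probe sets of 11 genes for other cyclin-dependent kinase inhibitors and their partners early in the cell cycle. By limma 2 of the 15 fell and 0 rose, where 10.8% of all tested probe sets fell and 10.5% rose. An unadjusted limma p under 0.05 was found for 3 of the 15 and for 2593 of all 7453. The median log2 difference was 0.06. Cdkn2c, which encodes the inhibitor p18, had 2751 ± 567 in LH transgenic glands and 6633 ± 418 in wild type glands (SD, n = 3 each; log2 -1.26, limma adjusted p 0.000891). The D-type cyclin gene Ccnd2 had 307 ± 27.0 in LH transgenic glands and 845 ± 303 in wild type glands (log2 -1.20, limma adjusted p 0.00991). The LH transgenic mean of Ccnd2 lay under the level required for testing, so it was tested because it was high in wild type glands.

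Ndn encodes necdin, a protein of the MAGE family that is known to restrain division of neurons and fat cell precursors. Probe set 101059_at had 1140.9, 1009.1 and 1426.7 on the LH transgenic arrays, against 2324.9, 2314.5 and 1946.9 on the wild type arrays. Probe set 94811_s_at had 798.6, 497.1 and 901.8 on the LH transgenic arrays, against 1685.3, 1578.6 and 1475.4 on the wild type arrays. At both, every LH transgenic pool was below every wild type pool, and LH transgenic pool 2 was lowest and pool 3 highest within its group. The differences were -0.85 (SE 0.16; 95% interval -1.21 to -0.49; limma adjusted p 0.00592) and -1.06 (SE 0.20; 95% interval -1.52 to -0.61; limma adjusted p 0.00615).

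Of the 3 member genes with several tested probe sets, Ndn was the only 1 whose probe sets were all called in the same direction. Their log2 ratio averaged 0.67 in LH transgenic pools and 0.45 in wild type pools, a difference of 0.22 (exact two-sided permutation p 0.2, adjusted p 0.2 over 5 pairs). Leaving out each pool in turn gave -0.98 to -0.74 for 101059_at and -1.22 to -0.84 for 94811_s_at, with limma adjusted p of at most 0.0266.

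Of 44 other imprinted genes listed, 24 had a probe set of their own and 10 genes, with 1 probe set each, were tested. By limma 2 of these 10 fell and 0 rose, where 10.8% of all tested probe sets fell and 10.5% rose. An unadjusted limma p under 0.05 was found for 5 of the 10 and for 2593 of all 7453. The median log2 difference was 0.02. Nnat, a paternally expressed gene for a small membrane protein of brain and fat cells, had 2970.2, 2372.9 and 1282.8 on the LH transgenic arrays, against 6118.2, 7314.9 and 11579.1 on the wild type arrays (log2 -1.90, SE 0.31, limma adjusted p 0.00298). Sgce, which encodes epsilon-sarcoglycan and is paternally expressed, had 1810.7, 1380.3 and 1457.0 on the LH transgenic arrays, against 3782.2, 3813.8 and 4060.1 on the wild type arrays (log2 -1.29, SE 0.14, limma adjusted p 0.000508). In both, every LH transgenic pool was below every wild type pool, as in 4 of the 10 probe sets and 19.8% of all tested probe sets.

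Among dimmer imprinted genes, Sfmbt2 and Plagl1 were picked out after their values were seen. Sfmbt2, a paternally expressed gene of the Polycomb group, had 243.1, 349.9 and 369.7 at 100706_f_at on the LH transgenic arrays, against 91.3, 170.1 and 99.5 on the wild type arrays. Every LH transgenic pool was above every wild type pool, and in the fit without the filter Sfmbt2 was called higher (log2 1.01, SE 0.24, limma adjusted p 0.0358), the only 1 of the 20 untested probe sets of that list with a call. Plagl1 encodes the zinc finger protein whose binding letters are marked above, and is itself paternally expressed. Its probe set 92502_at had 190.1, 46.2 and 103.9 on the LH transgenic arrays, against 488.6, 358.5 and 243.2 on the wild type arrays. Its probe set 92501_s_at had 143.0, 81.9 and 118.9 on the LH transgenic arrays, against 292.6, 262.7 and 206.0 on the wild type arrays. The groups did not overlap at either, but both were under the level required for testing. In the fit without that filter the differences were -1.23 and -0.78, with limma adjusted p of 0.0527 and 0.0579, neither called.

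Markers of several cell types moved with the same contrast, counted by the brightest probe set of each gene. Over all tested probe sets 10.8% fell and 10.5% rose. Of 18 tested fibroblast and matrix genes 13 fell by limma and 0 rose, and their mean log2 level, centred over the 6 arrays, was -0.54 to -0.19 in LH transgenic pools and 0.10 to 0.56 in wild type pools. Wild type pool 3 was highest in that list, and among wild type pools it was the highest for 6 of the 12 member probe sets and the lowest for 4, both of Ndn among them. Col1a1 (94305_at) had 20597 ± 2920 in LH transgenic glands and 33165 ± 5781 in wild type glands (SD, n = 3 each), and Dcn had 26696 ± 2712 in LH transgenic glands and 28645 ± 3583 in wild type glands. Of 11 fat cell genes 9 fell and 0 rose, with list means of -0.72 to -0.47 in LH transgenic pools and 0.46 to 0.66 in wild type pools. Adipoq had 30148 ± 1314 in LH transgenic glands and 48797 ± 2581 in wild type glands, and Car3 had 42258 ± 2174 in LH transgenic glands and 40785 ± 4488 in wild type glands. Of 11 endothelial genes 9 fell and 0 rose (list means -0.57 to -0.33 in LH transgenic pools and 0.35 to 0.50 in wild type pools; Eng and Cdh5 were brightest). The part of these lists in the members' differences was not tested, and none of their markers was listed at 0. Fat cell and endothelial levels entered no fit. The fibroblast and matrix level entered a fit below, but it did not overlap between groups.

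Skeletal muscle genes fell in 6 of 14 and rose in 0, with list means of -1.34, -1.01 and 0.49 in LH transgenic pools 1, 2 and 3 and of 0.53 to 0.76 in wild type pools. LH transgenic pool 3 thus stood near the wild type pools in muscle genes (Acta1 and Atp2a1 were brightest). Among LH transgenic pools, Meg3 160172_at and Cdkn1c were highest in pool 1 and lowest in pool 2. Both Ndn probe sets were highest in pool 3 and lowest in pool 2. Whether the order of the pools goes with their muscle level was not tested. Of 13 luminal epithelial genes 4 rose and 2 fell, where 10.5% of all tested probe sets rose and 10.8% fell. The list means were 0.05 to 0.20 in LH transgenic pools and -0.20 to 0.00 in wild type pools (Elf5 and Krt19 were brightest). The luminal receptor genes Esr1 and Pgr were too dim to test. Of 7 basal genes 1 rose and 0 fell (Acta2 and Mylk were brightest), and Krt14 and Krt5 were too dim to test. Over all 9 tested basal probe sets 2 rose and 1 fell. Krt17 was called lower at 92861_i_at (log2 -1.37, limma adjusted p 0.02) and higher at 161496_r_at (log2 0.93, limma adjusted p 0.00892). Of 10 macrophage genes 5 rose and 0 fell (Cd14 and Lyz2 were brightest).

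**Figure D4:**
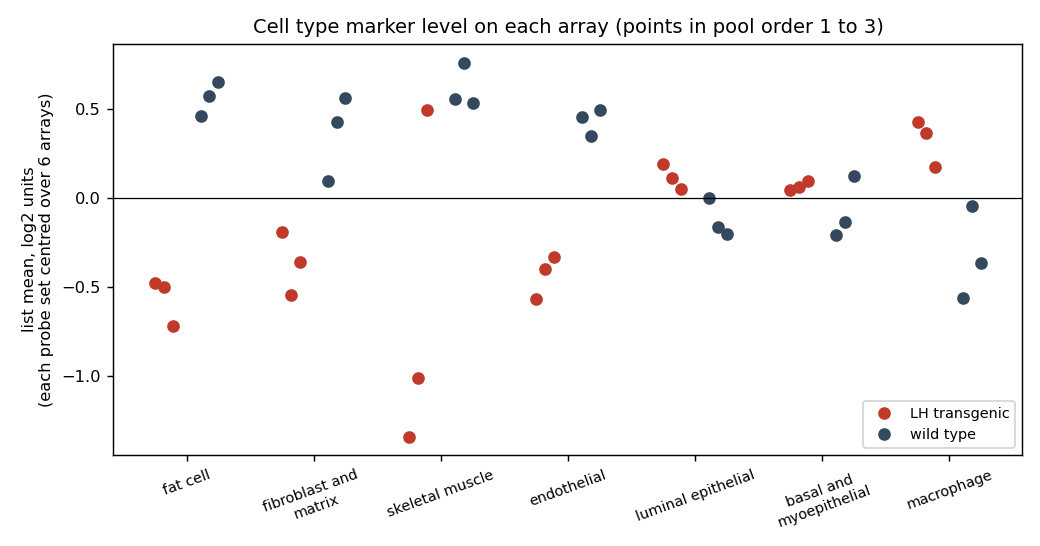
Mean log2 level of each cell type marker list (vertical axis, each probe set centred over the 6 arrays) on each array, LH transgenic pools in red left of wild type pools in dark blue. The fat cell, fibroblast and endothelial lists lie lower in all LH transgenic pools, and the skeletal muscle list of LH transgenic pool 3 (0.49) lies near the wild type pools.

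When skeletal muscle level was added to the model, which left 3 residual degrees of freedom, Meg3 160172_at kept its call (log2 -1.25, SE 0.26, limma adjusted p 0.023). Cdkn1c then differed by -1.21 (SE 0.36, limma adjusted p 0.0711), Ndn 101059_at by -0.58 (SE 0.20, limma adjusted p 0.11) and Ndn 94811_s_at by -0.80 (SE 0.28, limma adjusted p 0.117), and were not called. Without the covariate these differences were -1.13 (SE 0.24), -0.85 (SE 0.16) and -1.06 (SE 0.20). Calls over all tested probe sets were 731 with the covariate and 1586 without it. Peg3 101451_at differed by 2.09 and remained called (limma adjusted p 0.0203), and Peg3 96765_at lost its call at -0.69.

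With the fibroblast and matrix level as a covariate the covariate itself did not overlap between groups, 6 of 7453 probe sets were called in all, and 0 of the 12 member probe sets. Differences were then -0.64 (SE 0.35) for Meg3 160172_at, -0.02 (SE 0.41) for Cdkn1c, 1.02 (SE 0.70) for Mest, 0.040 (SE 0.36) for Peg3 96765_at, and -0.92 (SE 0.41) and -0.78 (SE 0.50) for Ndn 101059_at and 94811_s_at. With the covariate so close to the group label, this fit cannot tell group and fibroblast level apart for any gene. Whether these differences themselves differed between genes was not tested.

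**Figure D5:**
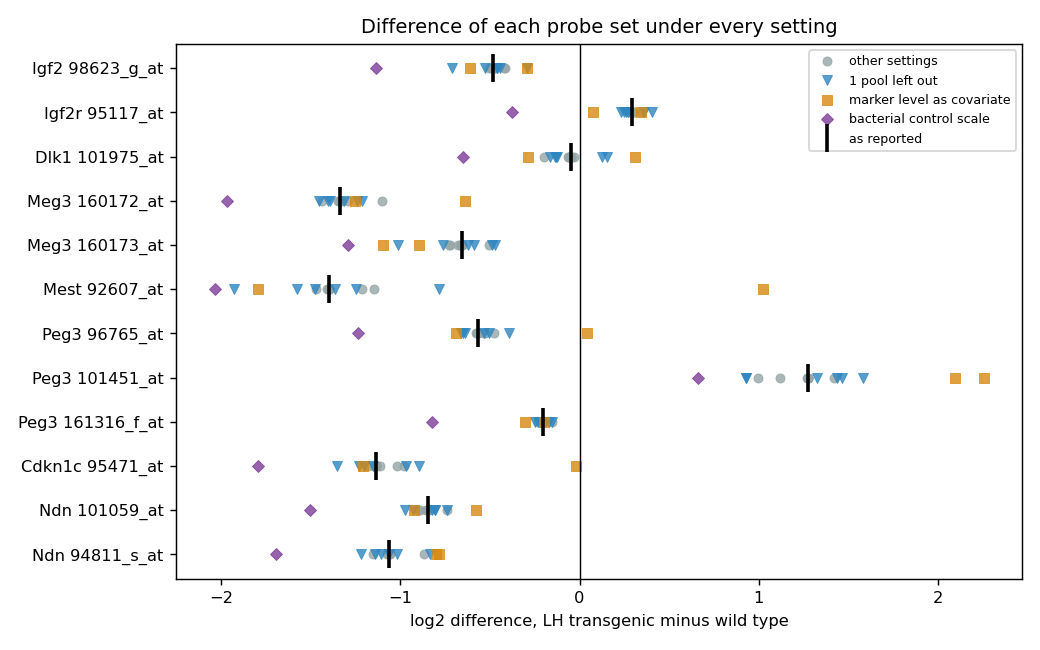
Log2 difference of each tested probe set (horizontal axis, LH transgenic minus wild type) as reported (black bar) and under each other setting. Values with a pool left out lie below 0 for Meg3, Cdkn1c, Ndn, Mest and Peg3 96765_at, and the bacterial control scale moves every probe set to lower values, with a median of all probe sets at -0.62.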

How the data were processed

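The deposited values are linear intensity values, and the submitters' processing notes name MAS5 as their source. Its version is not given in the sources used here. The table held 12488 probe sets, 66 of them controls that were left out. The mean after trimming 2% at each end was 1500.8 or 1500.9 on every array, so a shift of most genes in 1 direction would not show. The number of arrays limits the precision. The source names of the labels gave the groups. Replicate numbers follow deposit order and pair nothing. Per the labels the pools of a group are distinct samples, so the spread includes mice as well as technique.

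From the deposited intensity, log2(signal + 80.0) was computed, 80.0 being the 20th percentile of all values. Fold changes of dim genes are thereby understated. Probe sets with a mean of at least 336.0, the 40th percentile of means, were tested with limma 3.58.1 in R 4.3.3 (lmFit, eBayes with a trend, all 6 arrays, no covariate), two-sided, with Benjamini-Hochberg adjustment over 7453 probe sets and a threshold of 0.05. The fit was tested on simulated data. Ratios between probe sets of a gene were compared by exact permutation over arrays. Gene names came from platform annotation with 1 gene per probe set. All 16 member identifiers were found in RefSeq for GRCm38.p6, with 0 symbols changed. Members, lists and tests were chosen with earlier results of these data known. Every member probe set was reported. From each partner list up to 4 called probe sets by size were named, or 2 by p where none was called, and from marker lists the 2 brightest genes. Besides Plagl1 and Sfmbt2, the genes Esr1, Pgr, Krt14, Krt5, Krt17, Igf1r and the second probe sets of Igf1 and Notch1 were named after their values were seen. Alternatives were median centring, quantile normalization, the 9 bacterial hybridisation controls as the scale, a floor at 16.8 with nothing added, a pseudocount of 325.5, no filter, a filter at 933.0, arrayWeights, robust eBayes, eBayes without a trend, the muscle or fibroblast level as a covariate, and each pool left out.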

Additional observations from a re-analysis of the deposited data

How the results depend on the processing

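Of the 12 member probe sets, 5 fell and 1 rose. With the bacterial controls as the scale 9 fell, with the skeletal muscle covariate 1 and with the fibroblast covariate 0. The probe set that rose was not called without the filter or with the fibroblast covariate (0 each), and with a pool left out the number that rose was 0 to 1. Over all tested probe sets 805 fell and 781 rose. These became 3891 and 134 on the bacterial scale, 408 and 323 with the muscle covariate, 1 and 5 with the fibroblast covariate, and, with a pool left out, 507 (without wild type pool 3) to 896 and 434 (without wild type pool 3) to 745. Other imprinted genes had 6 lower on the bacterial scale and 0 with the fibroblast covariate, against 2, and 1 higher against 0 after quantile normalization, without the filter, with the stricter filter and with arrayWeights, and 0 to 1 with a pool left out. IGF and insulin partners, with 2 lower and 2 higher, had 9 lower and 1 higher on the bacterial scale, 1 higher with the stricter filter, 0 higher with the muscle covariate, and 0 and 0 with the fibroblast covariate. Cyclin-dependent kinase partners, with 2 lower and 0 higher, had 7 lower on the bacterial scale, 1 with the stricter filter, 1 with the muscle covariate and 0 with the fibroblast covariate, and 0 to 1 higher with a pool left out. Notch partners, with 2 lower and 1 higher, had 9 lower on the bacterial scale, 1 with the stricter filter, 1 with the muscle covariate, 0 with the fibroblast covariate and 1 to 3 with a pool left out, and 0 higher under each of these settings and without the filter, or 0 to 1 with a pool left out. Signs turned for Igf2r on the bacterial scale (-0.37), for Dlk1 with the muscle covariate (0.31) and without LH transgenic pool 1 (0.15) or wild type pool 2 (0.13; -0.17 to 0.15 over all pools left out), and with the fibroblast covariate for Mest (1.02) and Peg3 96765_at (0.040). The bacterial controls had a mean log2 signal of 12.35, 12.80 and 12.59 on the LH transgenic arrays. On the wild type arrays it was 11.71, 12.11 and 11.85, so dividing by this level lowers LH transgenic values. Why the controls differed between groups was not tested. Besides what that scale, the covariates and smaller samples change by construction, the cause was not tested. No paired analysis was possible because the replicate numbers only follow deposit order. Without the filter on dim probe sets Grb10 was not called either.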
